A study of Mus musculus with 6 samples.

Results

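Accessible chromatin was examined at 5 genes of the oligodendrocyte lineage, *Olig1*, *Olig2*, *Olig3*, *Pdgfra* and *Cspg4*, in neural stem and progenitor cells (NSPCs) with and without an enhancer cluster of *Sox2*. ATAC-seq, which uses a transposase to insert adapters where DNA is accessible, had been performed on 3 cultures of a parent line (clone 5B, genotype Sox2-mCherry (129), no deletion) and 3 cultures of a line with a homozygous SRR2-18 deletion (clone 47D, hereafter ΔSRR2–18). SRR2–18 is a cluster of enhancers downstream of *Sox2*, the gene of a transcription factor that maintains neural progenitors. Both lines are 129S1/Cast F1 Hybrid, carry the mCherry tag on the *Sox2* allele of strain 129, were differentiated from embryonic stem cells, and were grown in N2B27 medium with EGF and bFGF. Each genotype is represented by a single clone, so clone and genotype cannot be told apart. The comparison addresses how accessible chromatin differs between NSPCs that have and lack SRR2–18.

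The deposited values are peak lists pooled over the 3 cultures of a genotype. The spread between cultures is therefore unknown, and the values below are compared without a test. Intervals of the conservative list of each genotype were assigned to a gene when the strongest summit lay nearest to that gene's transcription start site (TSS) among all protein-coding genes and at most 50 kb from it. By this rule the 5 genes held 55 of 190365 intervals, 38 of 82885 in the parent list and 17 of 107480 in the ΔSRR2–18 list. An interval was called parent-only or deletion-only when it overlapped no interval of the other conservative list by 1 bp or more. Absence from a list means that no peak passed the authors' threshold there, and not that the DNA was closed.

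OLIG1, OLIG2 and OLIG3 are basic helix-loop-helix transcription factors. OLIG2 marks the ventral progenitors of the neural tube that give rise to motor neurons and oligodendrocytes, and it is also present in many cultured neural stem cells. OLIG1, encoded beside *Olig2*, acts later in oligodendrocyte maturation, while OLIG3 specifies neurons of the dorsal neural tube and is grouped here by family. PDGFRα is the receptor through which PDGF-A drives the proliferation of oligodendrocyte precursor cells, and NG2, the proteoglycan encoded by *Cspg4*, marks these precursors as well as pericytes.

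For each summit the number of reads (the height of the read pileup) was solved from the fold enrichment and −log10 p of the peak caller. The lowest background of a list, which is its genome-wide mean, was 38.8 reads for the parent and 19.7 for ΔSRR2–18, which differ by a factor of 1.98. Levels are therefore given as summit reads divided by this background, written as fold over genome background. On this scale the weakest 1% of intervals lay at or below 3.96-fold in the parent list and 4.83-fold in the ΔSRR2–18 list, and the medians of all intervals were 17.6-fold and 18.0-fold. Between the guide RNA sites of the deletion, the parent list held 4 intervals and the ΔSRR2–18 list held 0. Promoters of 6 of 6 neural progenitor marker genes had an interval in each list, against 2 of 4 neuronal markers for the parent and 3 of 4 for ΔSRR2–18, 1 of 3 astrocyte markers in each, and 0 of 3 pluripotency markers in either. The progenitor promoters had lower levels in ΔSRR2–18, with 51.6-fold in the parent and 12.1-fold in ΔSRR2–18 at *Sox1*, 94.3-fold and 22.6-fold at *Fabp7*, and 115-fold and 36.2-fold at *Sox2*. The levels were closer at *Nes* (90.4-fold and 51.6-fold), *Slc1a3* (54.3-fold and 36.6-fold) and *Vim* (105-fold and 102-fold). Lower levels were not confined to progenitor markers. The neuronal *Tubb3* (92.4-fold and 76.6-fold) and *Snap25* (55.1-fold and 43.0-fold) and the astrocyte *Aldoc* (49.1-fold and 32.4-fold) were lower in ΔSRR2–18 as well. The part of these differences in the results below was not tested.

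The sequences below are 151 bases of mm10, plus strand, centred on the strongest summit, unless stated otherwise. The first set holds the promoters of *Olig2* and *Olig1*, which were in both lists, the 4 strongest intervals around them that were in the parent list alone, and the weaker parent-only interval that holds an OLIG E-box. Capitals mark exact matches, on either strand, to the motifs searched: SOX (ACAATGG or ACAAAGG), ZIC (CAGCNGG, which also takes in some E-boxes), OLIG E-box (CATATG), AP-1 (TGACTCA or TGAGTCA), HOX-PBX (TGATTNAT) and CTCF core (AGGGGGCNC).
*Olig2* promoter, in both lists, chr16:91225290-91225440: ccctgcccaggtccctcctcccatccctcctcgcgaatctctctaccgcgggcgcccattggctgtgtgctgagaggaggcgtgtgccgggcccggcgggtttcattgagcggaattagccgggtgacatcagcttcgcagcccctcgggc
*Olig1* promoter, in both lists, chr16:91269595-91269745: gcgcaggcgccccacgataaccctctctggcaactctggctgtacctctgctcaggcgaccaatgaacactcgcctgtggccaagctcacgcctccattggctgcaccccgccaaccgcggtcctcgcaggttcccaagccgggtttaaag
*Olig2* 2.81 kb upstream, parent list, chr16:91222569-91222719: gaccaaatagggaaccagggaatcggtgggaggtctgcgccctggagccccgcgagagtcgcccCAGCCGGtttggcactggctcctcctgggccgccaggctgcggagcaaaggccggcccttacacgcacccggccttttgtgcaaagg
*Olig2* 21.0 kb downstream, parent list, chr16:91246377-91246527: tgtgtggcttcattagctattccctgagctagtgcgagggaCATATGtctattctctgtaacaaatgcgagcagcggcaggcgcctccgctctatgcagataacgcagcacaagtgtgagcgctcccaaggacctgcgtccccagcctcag
*Olig1* 6.76 kb upstream, parent list, chr16:91262932-91263082: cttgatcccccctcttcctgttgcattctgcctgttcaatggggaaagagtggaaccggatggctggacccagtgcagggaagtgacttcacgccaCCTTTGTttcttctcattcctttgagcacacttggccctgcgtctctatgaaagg
*Olig1* 3.61 kb upstream, parent list, chr16:91266091-91266241: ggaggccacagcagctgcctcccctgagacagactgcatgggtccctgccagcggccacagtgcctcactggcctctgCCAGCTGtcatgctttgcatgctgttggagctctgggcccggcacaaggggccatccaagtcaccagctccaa
*Olig1* 34.7 kb downstream, parent list, chr16:91304402-91304552: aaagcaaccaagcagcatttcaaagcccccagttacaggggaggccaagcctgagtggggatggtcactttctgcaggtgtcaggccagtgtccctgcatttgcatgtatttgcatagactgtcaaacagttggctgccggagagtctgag

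The second set holds the strongest *Olig3* interval, in the parent list alone, the strongest deletion-only intervals of *Olig2*, *Pdgfra* and *Cspg4*, and the *Pdgfra* interval found in both lists, which is shown as the 83 bases of intron around its summit.
*Olig3* 46.3 kb upstream, parent list, chr10:19310137-19310287: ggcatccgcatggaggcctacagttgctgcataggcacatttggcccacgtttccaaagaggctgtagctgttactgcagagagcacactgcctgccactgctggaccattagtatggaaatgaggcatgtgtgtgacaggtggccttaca
*Olig2* 9.57 kb downstream, ΔSRR2–18 list, chr16:91234949-91235099: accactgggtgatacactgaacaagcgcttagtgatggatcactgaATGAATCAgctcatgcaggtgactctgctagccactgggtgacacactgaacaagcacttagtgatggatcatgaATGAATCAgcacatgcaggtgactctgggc
*Pdgfra* 974 bp upstream, ΔSRR2–18 list, chr5:75151243-75151393: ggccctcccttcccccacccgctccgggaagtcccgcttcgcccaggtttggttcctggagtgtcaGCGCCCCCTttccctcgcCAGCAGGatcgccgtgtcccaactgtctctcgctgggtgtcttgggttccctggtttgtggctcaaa
*Cspg4* 8.29 kb downstream, ΔSRR2–18 list, chr9:56873253-56873403: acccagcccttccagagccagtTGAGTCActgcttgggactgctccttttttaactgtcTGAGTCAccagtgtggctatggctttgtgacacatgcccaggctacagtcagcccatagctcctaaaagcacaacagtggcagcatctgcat
*Pdgfra* intron, in both lists, chr5:75156350-75156432: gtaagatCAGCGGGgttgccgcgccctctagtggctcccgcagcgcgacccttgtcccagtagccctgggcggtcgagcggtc

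*Olig1* and *Olig2* together had 21 parent intervals, of which 18 (85.7%) were parent-only, and 7 ΔSRR2–18 intervals, of which 4 were deletion-only. *Olig3* had 5 parent intervals and none in the ΔSRR2–18 list. *Pdgfra* had 4 intervals in each list, and *Cspg4* had 8 parent and 6 ΔSRR2–18 intervals. Over the 5 genes, 30 of 38 parent intervals (78.9%) were parent-only, beside 52.3% of all parent intervals, and 9 of 17 ΔSRR2–18 intervals (52.9%) were deletion-only, beside 63.1% of all ΔSRR2–18 intervals. Within 50 kb, the parent list was thus the longer one at 4 of these genes although it is the shorter list as a whole. Across genes with an interval the median was 2.00 intervals for the parent and 3.00 for ΔSRR2–18. Within 10 kb the parent list had more at *Olig1* (4 against 2) and *Olig2* (6 against 2). The ΔSRR2–18 list had more at *Pdgfra* (4 against 3) and *Cspg4* (3 against 2), and *Olig3* had none in either. In bulk samples, fewer cells with open chromatin at a locus and less accessibility per cell cannot be told apart.

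**Figure D1:**
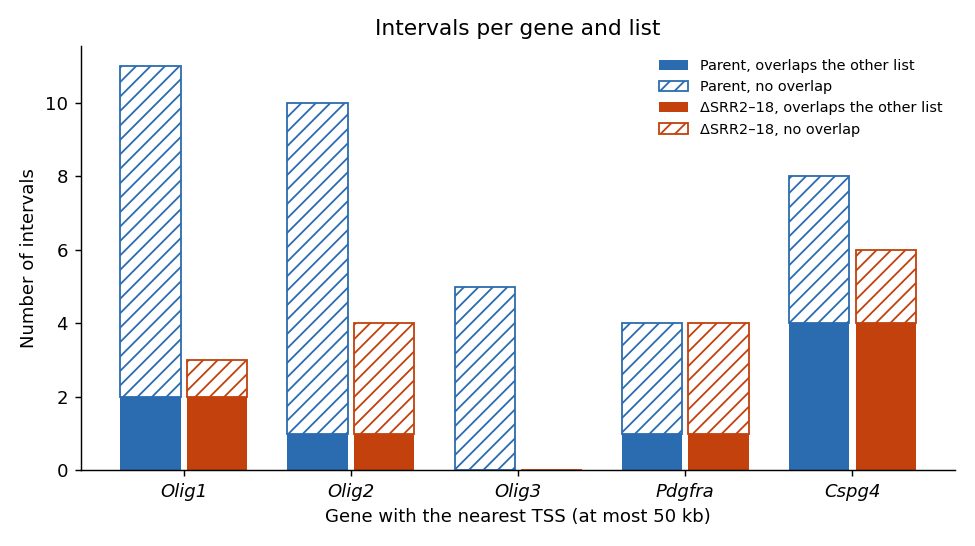
Number of intervals nearest to each of the 5 genes (bars, parent in blue, ΔSRR2–18 in orange); the filled part overlaps an interval of the other list and the hatched part does not. Of the 11 *Olig1* and 10 *Olig2* intervals of the parent list, 9 each are hatched, and *Olig3* has no bar for ΔSRR2–18.

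*Olig2* (ENSMUSG00000039830.9) is a forward-strand gene of chromosome 16 that spans 91225457 to 91228677 in mm10. Its promoter interval was in both lists, with summits 4 bp apart, 92 bp upstream of the TSS for the parent and 88 bp upstream for ΔSRR2–18. The summit held 5276 reads in the parent and 296 in ΔSRR2–18 NSPCs, which is 136-fold and 15.1-fold over genome background. The level was 9.02-fold lower in ΔSRR2–18 (95% exact interval, 8.02–10.2, for counting error only). Of the 39500 overlapping pairs of intervals in the genome, 0.846% had a ratio as low or lower. A second summit inside the parent interval, 316 bp downstream of the TSS, had 1354 reads, or 34.9-fold. The ΔSRR2–18 interval had its second summit 376 bp downstream with 105 reads, or 5.34-fold.

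The other 9 *Olig2* intervals of the parent list were parent-only. The strongest, 2.81 kb upstream in an exon of the noncoding gene *Gm49614*, reached 4767 reads, or 123-fold over genome background. This region did appear in the optimal list of ΔSRR2–18, a longer list from the same pipeline, with 153 reads, or 7.78-fold, which leaves 8 *Olig2* intervals absent from both ΔSRR2–18 lists. An interval 549 bp upstream had 2009 reads (51.7-fold). Downstream of the gene, intervals at 4.66, 6.95 and 8.14 kb had 42.1-fold, 72.4-fold and 60.3-fold. The interval at 21.0 kb had 1785 reads, or 46.0-fold, and holds the OLIG E-box CATATG. Farther upstream, intervals at 33.4, 32.6 and 22.3 kb had 34.6-fold, 13.0-fold and 6.05-fold. The parent-only intervals of *Olig2* thus ran from 6.05-fold to 123-fold, all below its promoter.

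ΔSRR2–18 NSPCs had 3 *Olig2* intervals of their own. The strongest lay 9.57 kb downstream, with 361 reads, or 18.4-fold over genome background, and exceeded the promoter in that list (15.1-fold). Its summit window holds the HOX-PBX letters at 2 places within a tandem repeat. The others lay 13.5 kb downstream (208 reads, 10.6-fold) and 38.0 kb upstream (155 reads, 7.88-fold). The one at 13.5 kb overlapped an interval of the parent optimal list with 177 reads, or 4.56-fold.

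*Olig1* (ENSMUSG00000046160.6) lies 44.3 kb from *Olig2* on the same strand, from 91269772 to 91271933. Its promoter summit, at the same base 102 bp upstream of the TSS in both lists, held 3432 reads in the parent and 312 in ΔSRR2–18. These are 88.4-fold and 15.9-fold over genome background, a level 5.57-fold lower in ΔSRR2–18 (4.96–6.27, counting error only), and 2.31% of all pairs had a ratio as low or lower. A second summit, 446 bp downstream of the TSS in the parent list, had 772 reads (19.9-fold) against 117 (5.95-fold) at a summit 20 bp away. The other *Olig1* interval in both lists lay 44.6 kb downstream, in an intron of the noncoding gene *Gm15966*. Its main summit had 1980 reads in the parent and 277 in ΔSRR2–18, or 51.0-fold and 14.1-fold, which is 3.62-fold lower (3.19–4.12). Its second summit, 44810 bp downstream, differed more, with 47.2-fold and 4.07-fold. All 5 summits of *Olig1* and *Olig2* that could be matched between the lists within 50 bp were therefore at least 2-fold lower in ΔSRR2–18. They lie within the overlapping intervals described above and are not separate regions.

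The strongest intervals of *Olig1* were parent-only. An interval 3.61 kb upstream had 6197 reads, or 159.5-fold over genome background, within the top 1.73% of the parent list by this measure. The next lay 34.7 kb downstream in the intron of *Gm15966*, with 5954 reads (153-fold), beside another at 36.2 kb with 4286 reads (110.3-fold). An interval 6.76 kb upstream, in an exon of the noncoding gene *Gm37016*, had 4679 reads (120.5-fold) and holds SOX letters near its summit. The 5 remaining parent-only intervals had between 8.29-fold and 26.4-fold. No *Olig1* interval absent from the conservative ΔSRR2–18 list was found in the optimal one. The single deletion-only interval of *Olig1*, 8.75 kb upstream, had 174 reads (8.85-fold) and an AP-1 motif near its summit.

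Side by side, the *Olig1* and *Olig2* intervals of the 2 genotypes covered different ranges. Parent levels ran from 6.05-fold to 159.5-fold with a median of 51.0-fold, beside 17.6-fold for all parent intervals. ΔSRR2–18 levels ran from 7.88-fold to 18.4-fold with a median of 14.1-fold, beside 18.0-fold for all ΔSRR2–18 intervals. Of the 21 parent intervals, 15 lay above the strongest one of ΔSRR2–18. That level, 18.4-fold, is the highest of only 7 intervals and is close to the median of all parent intervals (17.6-fold).

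**Figure D2:**
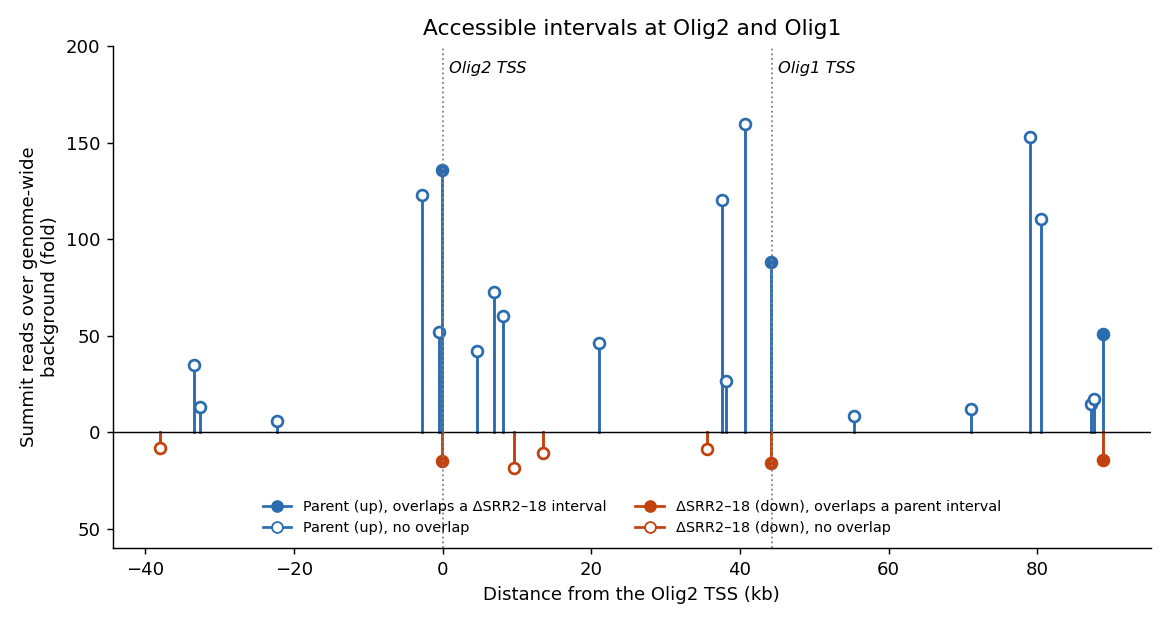
Summit reads over genome background (vertical axis, fold) of each interval nearest to *Olig1* or *Olig2*, by distance from the *Olig2* TSS in kb; parent values point up and ΔSRR2–18 values down, filled circles overlap an interval of the other list and open circles do not. The parent stems reach 159.5-fold, whereas no ΔSRR2–18 stem passes 18.4-fold.

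The background around the intervals differed as well. The peak caller sets the local background from reads in windows around a peak, including the reads of the peak itself and its neighbours. In the parent list, 12 of the 21 *Olig1* and *Olig2* intervals (57.1%) had a local background at least 10-fold above the genome-wide mean, up to 20.7-fold at the *Olig2* promoter, beside 4.79% of all parent intervals. In the ΔSRR2–18 list 0 of 7 did, with a highest value of 2.31-fold, beside 1.67% of all ΔSRR2–18 intervals. Between the genotypes the local background, on the same scale, was 8.95-fold lower in ΔSRR2–18 at the *Olig2* promoter and 10.1-fold lower at the *Olig1* promoter. Fold enrichment, which divides by this local background, hence showed little of the difference: at the *Olig2* promoter it was 6.55 in the parent and 6.39 in ΔSRR2–18, and at the *Olig1* promoter 7.25 and 12.7. On that scale both *Olig1* pairs were higher in ΔSRR2–18, by ratios of 1.75 and 1.22. By rank in the parent list, the median *Olig1* and *Olig2* interval fell in the top 21.3% by reads, the top 30.1% by −log10 p and the top 70.7% by fold enrichment. The ranks in the ΔSRR2–18 list were the top 60.5%, 65.8% and 61.9%.

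**Figure D3:**
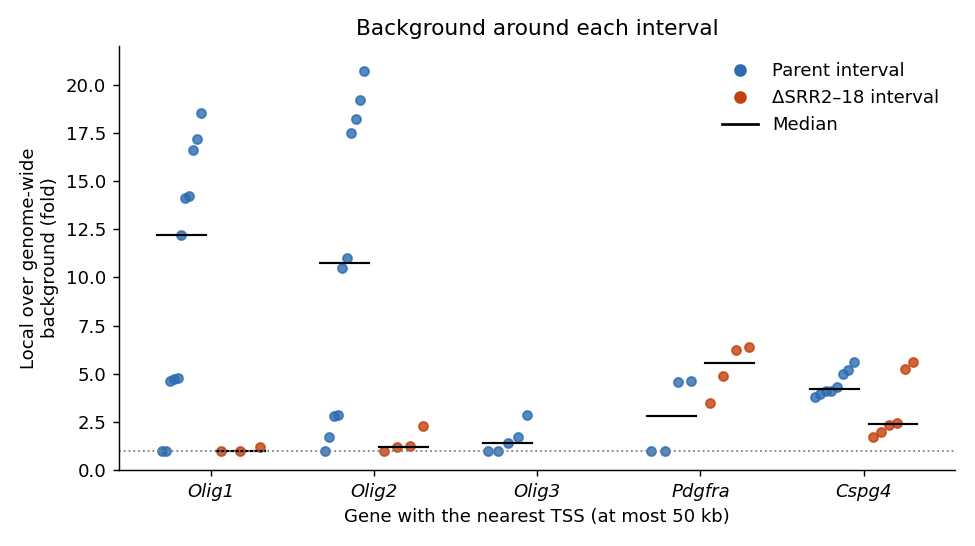
Local background of each interval divided by the genome-wide background of its list (vertical axis, fold; dotted line at the genome-wide mean), by gene; points are intervals and bars their medians. At *Olig1* and *Olig2*, 12 parent intervals lie at 10-fold or more and all ΔSRR2–18 intervals at 2.31-fold or less.

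The difference at the locus could be set beside that of its surroundings. Within 50 kb of *Olig1* and *Olig2*, 18 of 21 parent intervals were parent-only and the median ratio of ΔSRR2–18 to parent level over the 3 pairs was 0.180. From 50 to 250 kb, 16 of 30 (53.3%) were parent-only, close to the share in the whole list, and the median ratio over 14 pairs was 0.994. From 250 to 500 kb these values were 22 of 38 (57.9%) and 0.723 over 16 pairs. Over all pairs in the genome the median ratio was 0.852 (interquartile range 0.611–1.40).

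*Olig3* (ENSMUSG00000045591.6) lies on chromosome 10 from 19356533 to 19358604, on the forward strand, and had no interval within 10 kb of its TSS in either list. Its 5 parent intervals were all parent-only, under the optimal lists too. The strongest, 46.3 kb upstream in an intron of the noncoding gene *Gm33056*, had 3152 reads, or 81.1-fold over genome background, and its fold enrichment of 28.2 placed it in the top 0.417% of the parent list. A second interval in the same gene, 38.1 kb upstream, had 1126 reads (29.0-fold), and one 17.5 kb downstream had 1379 reads (35.5-fold). The others, 40.5 kb downstream and 27.0 kb upstream, had 579 reads (14.9-fold) and 199 reads (5.12-fold), the latter with an AP-1 motif. Local background here was low, from 1.00-fold to 2.85-fold, unlike at *Olig1* and *Olig2*. Among all 3842 genes with 5 or more parent intervals, 19 (0.495%) had none in the ΔSRR2–18 list. *Olig3*, with exactly 5, lies at the lower bound of this set, so the share is not that of genes with the same count. Assignment by distance does not show that these intervals act on *Olig3*.

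*Pdgfra* (ENSMUSG00000029231.15), on chromosome 5 from 75152292 to 75198215 on the forward strand, differed less. Its strongest interval, in the first part of the gene near an annotated internal TSS, was in both lists with 4 summits each. The main summit, 458 bp downstream of that TSS, had 3045 reads in the parent and 1284 in ΔSRR2–18, or 78.4-fold and 65.3-fold over genome background, a ratio of 0.833 (0.780–0.890, counting error only). Of all pairs, 48.3% had a ratio as low or lower. The summit 12 bp downstream of the TSS was higher in ΔSRR2–18, at 29.8-fold and 39.8-fold, a ratio of 1.33 (1.22–1.46). The summits 809 bp and 1075 bp downstream had ratios of 0.731 and 0.584, so the 4 summits of the interval did not move alike.

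The other *Pdgfra* intervals were weaker and lay at different places in the 2 lists. In ΔSRR2–18 NSPCs, 3 deletion-only intervals lay upstream of the first TSS, at 974 bp (394 reads, 20.0-fold), 1.47 kb (374 reads, 19.0-fold) and 3.31 kb (304 reads, 15.5-fold). The one at 974 bp holds the CTCF core letters. In the parent list, 3 parent-only intervals lay 1.34 kb downstream of the internal TSS (600 reads, 15.4-fold, with an OLIG E-box), 8.91 kb upstream (333 reads, 8.57-fold) and 30.4 kb upstream (242 reads, 6.23-fold). Against both ΔSRR2–18 lists only the last remained parent-only: the optimal list held the other 2 with 13.9-fold and 6.15-fold. The deletion-only intervals near the first TSS had no parent counterpart in either list.

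*Cspg4* (ENSMUSG00000032911.6), on chromosome 9 from 56865033 to 56899870 on the forward strand, had intervals of both kinds in its introns. The strongest parent interval, 3.42 kb downstream of the TSS, had 3159 reads (81.3-fold over genome background) and was parent-only, as was one at 11.9 kb with 2102 reads (54.1-fold). In ΔSRR2–18, an interval of similar level to the latter, 8.29 kb downstream, had 1123 reads (57.1-fold), was deletion-only and carries the AP-1 letters TGAGTCA at 2 places. A weak deletion-only interval covered the promoter itself, with 158 reads (8.04-fold). The remaining parent-only intervals, 15.9 and 29.2 kb downstream, had 11.8-fold and 27.1-fold.

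Of the 4 *Cspg4* pairs, those at 24.9 and 26.6 kb had levels of 33.2-fold and 33.1-fold, and of 35.3-fold and 34.4-fold, with ratios of 0.996 (0.905–1.10) and 0.973 (0.886–1.07). At 6.24 kb the strongest summits were 10.7-fold in the parent and 58.7-fold in ΔSRR2–18, a ratio of 5.49 (4.90–6.16), but they lay 304 bp apart. The parent interval there was among the weakest of its list by −log10 p (top 98.8%) and was absent from the parent optimal list. The stronger ΔSRR2–18 summit, 5.93 kb downstream, holds an AP-1 motif and had no parent summit within 50 bp. Its neighbour matched the parent summit within 10 bp, with 22.6-fold and a ratio of 2.11 (1.84–2.42). At 17.4 kb the strongest summits were also apart, by 536 bp, and had nearly the same level (27.7-fold and 27.9-fold), whereas matched summits at 17.4 and 18.0 kb went opposite ways, with ratios of 0.299 and 3.51. The interval was thus present in both genotypes with a different shape.

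**Figure D4:**
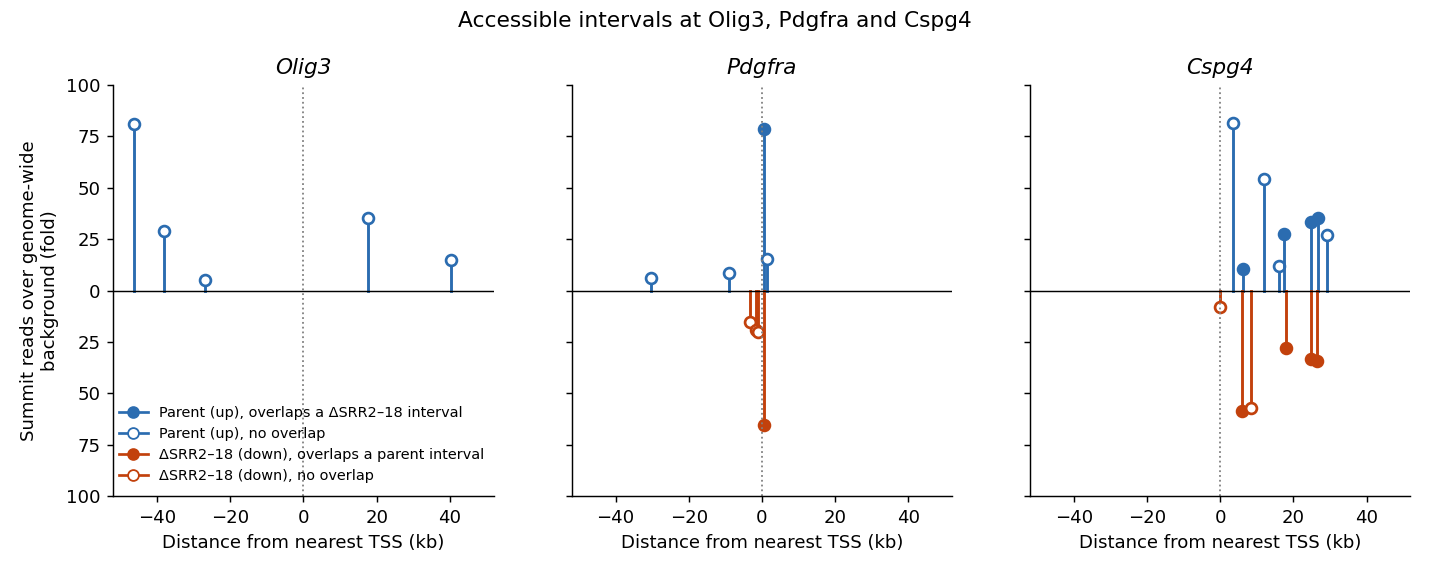
Summit reads over genome background (vertical axis, fold) of each interval nearest to *Olig3*, *Pdgfra* and *Cspg4*, by distance from the nearest TSS of that gene in kb; parent values point up and ΔSRR2–18 values down, and open circles overlap no interval of the other list. *Olig3* has parent stems alone, while *Pdgfra* and *Cspg4* have stems of similar height in both directions.

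Over the 8 pairs of the 5 genes, 3 were at least 2-fold lower in ΔSRR2–18, all at *Olig1* or *Olig2*, beside 15.8% of all pairs, and 1, at *Cspg4*, was at least 2-fold higher, beside 16.2% of all pairs. The median of the 8 ratios was 0.903, beside 0.852 for all pairs. By summits matched within 50 bp, which were compared after the data had been seen, *Olig1* and *Olig2* had 5 of 5 at least 2-fold lower, *Pdgfra* had 0 of 4 past 2-fold in either direction, and *Cspg4* had 1 of 6 lower and 2 of 6 higher. Several of these summits share an interval, and those of *Olig1* and *Olig2* lie in the 3 pairs already counted. No share over all matched summits of the genome is given beside these counts.

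**Figure D5:**
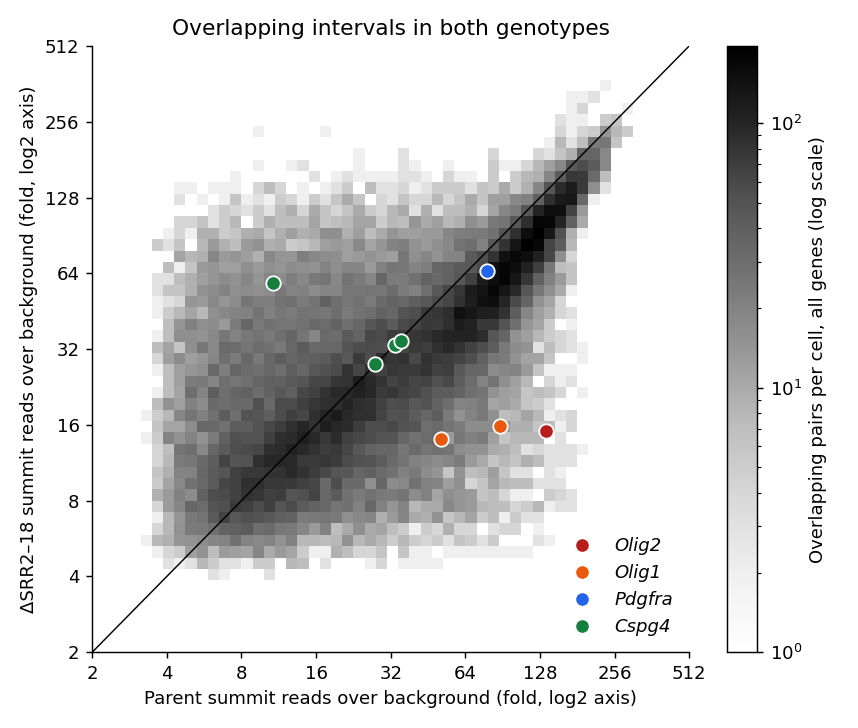
Summit reads over genome background of overlapping intervals in the parent (horizontal axis, fold, log2 scale) and ΔSRR2–18 (vertical axis, fold, log2 scale); grey shading counts all 39500 pairs of the genome, coloured points are the 8 pairs of the 5 genes, and the line marks equal levels. The *Olig2* and *Olig1* points lie below the line, 1 *Cspg4* point at 10.7-fold and 58.7-fold lies above it, and the other *Cspg4* points and *Pdgfra* lie near it.

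Motif matches within 100 bp of the strongest summit were few. SOX letters occurred in 4 of 38 parent intervals (10.5%), all 4 of them parent-only and at *Olig1* or *Olig2*, beside 11.6% of all parent intervals and 15.1% of all parent-only ones. They occurred in 0 of 17 ΔSRR2–18 intervals, beside 6.55% of all intervals of that list. AP-1 letters, the target of FOS and JUN proteins, occurred in 2 of 38 parent intervals (5.26%, beside 5.13%) and in 3 of 17 ΔSRR2–18 intervals (17.6%, beside 31.0%). ZIC letters occurred in 12 of 38 (31.6%, beside 28.7%) and 3 of 17 (17.6%, beside 19.8%). The OLIG E-box occurred in 2 parent intervals (5.26%, beside 3.08%), 1 at *Olig2* and 1 at *Pdgfra*, and in 0 of 17 ΔSRR2–18 intervals (beside 4.69%). HOX-PBX letters occurred in 2 parent intervals (5.26%, beside 2.16%) and in 1 ΔSRR2–18 interval (5.88%, beside 7.60%). CTCF core letters occurred in 1 parent interval, at *Olig2* (2.63%, beside 2.00%), and in 1 ΔSRR2–18 interval, at *Pdgfra* (5.88%, beside 1.32%). Apart from ZIC in the parent list, each of these counts is of at most 4 intervals, and a match is a run of letters, not a bound site.

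A wider list of 29 oligodendrocyte genes, chosen with earlier results of these data known, held intervals of both kinds. There were 154 parent intervals, 100 of them parent-only (64.9%, beside 52.3% of all parent intervals), and 135 ΔSRR2–18 intervals, 79 of them deletion-only (58.5%, beside 63.1% of all ΔSRR2–18 intervals). The parent list had more intervals at 17 genes, the ΔSRR2–18 list at 9, and 3 were equal, among them *Mag*, which had none in either. Over all 21924 protein-coding gene names, 4904 had more parent and 8072 more ΔSRR2–18 intervals.

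Among 10 transcription factors of the lineage, the lists held 44 and 54 intervals, and 6 genes had more in ΔSRR2–18. *Sox10*, which drives oligodendrocyte differentiation, had 4 parent and 2 ΔSRR2–18 intervals, the strongest at 95.0-fold and 28.4-fold. *Sox8*, its close relative, had 7 and 4, the strongest at 149-fold and 58.1-fold. The median level was higher in ΔSRR2–18 at *Sox10* (8.10-fold in the parent, 18.1-fold in ΔSRR2–18) and lower at *Sox8* (51.3-fold and 22.8-fold). *St18*, *Zfp536* and *Zfp488* went the other way, with no parent interval and 6, 4 and 1 in ΔSRR2–18. The strongest of *St18* reached 58.6-fold and that of *Zfp536* 54.3-fold.

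Among 9 genes of precursors, 8 had more parent intervals, 69 in all against 44. *Cxcr4*, a chemokine receptor, had 9 and 2, and *Ptprz1*, a receptor phosphatase of precursors and glia, had 10 and 4. *Cspg5*, a brain proteoglycan, had 10 and 6, its strongest at 151-fold and 53.2-fold. *Pdgfa*, the ligand of PDGFRα, had 15 and 12, its strongest at 98.4-fold and 46.1-fold. *Gpr17*, a receptor of committed precursors, was the exception with 0 and 2. Among 10 myelin genes the totals were 41 and 37: *Opalin* had 10 and 4, whereas *Mbp*, which encodes myelin basic protein, had 8 and 14.

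Other genes had interval counts like those of the 5. Nearest to *Olig2* in the 4 counts of parent-only, deletion-only and overlapping intervals were *Galm*, *Stk10* and *Dab1*, at a summed difference of 0, 0 and 1 interval. For *Olig1* they were *Igsf21*, *Emid1* and *7530416G11Rik* (0, 0 and 1), and for *Olig3*, *Smpdl3a*, *Ces5a* and *4933407L21Rik* (0 each). For *Pdgfra* they were *Lars2*, *Tecta* and *Pitpnb*, and for *Cspg4*, *Wnt9a*, *Otulin* and *Fam83a*, all at 0. Of 745 genes with at least 10 parent intervals, 22 (2.95%) had 90% or more of them parent-only in the conservative lists. Among them was *Olig2* with 9 of 10, which is exactly at this cutoff. Judged against both lists of the deletion line, *Olig2* had 8 of 10, and under the optimal lists 9 of 12, each below the cutoff.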

How the data were processed

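ATAC-seq of 3 parent and 3 ΔSRR2–18 NSPC cultures was aligned by the authors to mm10 using ENCODE's ATAC-seq pipeline. Per the labels, each culture had 30000 cells and 50 to 60 M reads after 11 to 14 PCR cycles. This range is the same for both genotypes, whereas the genome backgrounds of the lists differed by a factor of 1.98. The sources used here do not give the reason. The authors called peaks with MACS2 and combined cultures by IDR, and deposited 1 conservative and 1 optimal list per genotype. Each deposited peak has an IDR score, a fold enrichment (a ratio of reads to local background), −log10 p with −log10 q, and a summit. These are peak caller values on pooled reads, and other settings are not given in the sources used here. Reads of the *M. castaneus* allele were mapped to mm10, where mismatches can lower mapping, and alleles were not separated.

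Reads and local background at each summit were solved from the fold enrichment and Poisson −log10 p. Whole reads (within 0.05) resulted for 99.9993% of parent and 100.0000% of ΔSRR2–18 peaks. Pileup heights are not independent molecules, so intervals cover counting error only; they are exact binomial and conditional on the sum of reads. The strongest summit is the one with the highest fold enrichment, and it is a maximum. Genes and TSSs are from GENCODE M21 basic (21951 protein-coding genes), and sequences from RefSeq's mm10 (GRCm38) assembly. Overlaps, nearest genes and read recovery were tested on simulated data. Python 3.11.15, numpy 2.4.6, pandas 2.3.3, scipy 1.17.1 and pysam 0.24.0 were used. The genes, the lists and the motifs were chosen with earlier results of these data known. The 9 motifs searched also included NKX2, GLI and NFI. At the 5 genes NKX2 matched 1 of 38 parent intervals (beside 4.29% of all) and 0 of 17 ΔSRR2–18 intervals (beside 4.39%). GLI and NFI matched none, but they are rare, with GLI in 0.425% and 0.299% and NFI in 0.0157% and 0.0121% of all intervals. The genes named as alike had the smallest summed difference in 4 interval counts, with ties broken by the strongest levels.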

Additional observations from a re-analysis of the deposited data

How the results depend on the processing

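No paired analysis was possible because each list pools the 3 cultures of a genotype, and for the same reason no culture could be left out. With a gene distance of 10 kb the 5 genes held 15 parent and 11 ΔSRR2–18 intervals. With genes of every biotype as candidates they held 19 parent and 12 ΔSRR2–18 intervals, since noncoding neighbours such as *Gm15966* then took others. *Pdgfra* then had 2 parent and 4 ΔSRR2–18 intervals, while the other genes kept more parent intervals. The median ratio of the pairs was 1.70 by fold enrichment, the scale on which the *Olig1* pairs reversed (1.75 and 1.22), and 0.731 with summits matched within 50 bp, an alternative added after the data were seen. Ranked by fold enrichment, the median parent interval of the 5 genes fell to the top 65.6% from the top 36.4% by −log10 p. Over whole intervals in place of 100 bp windows, parent matches were 10 for SOX, 4 for AP-1, 4 for the OLIG E-box and 4 for HOX-PBX, and ΔSRR2–18 matches for SOX were 2; within 50 bp, HOX-PBX had 0 in the parent. Parent-only counts of *Olig1* (9), *Olig2* (9) and *Olig3* (5) were the same under the optimal lists and at a 50% reciprocal overlap. They were 3, 5 and 0 with the gene distance of 10 kb, and 3, 4 and 3 with genes of every biotype. At an IDR score of at least 830 they were 8, 7 and 4. Judged against both ΔSRR2–18 lists, *Olig2* had 8, and the 5 genes had 27 in place of 30. Parent values scaled to the ΔSRR2–18 depth left the counts unchanged at a cutoff of −log10 p of at least 20. The weakest parent intervals of *Olig1* and *Olig3* had 72.7 and 73.8 before scaling, far above it, so this check says little on depth. Merging overlapping intervals changed nothing, as none overlapped within a list. Depth limits what absence shows: by its genome background the parent list is the deeper one, and an interval under the ΔSRR2–18 threshold may still be accessible.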
